A study of Homo sapiens with 12 samples.

Results

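Small nucleolar RNA (snoRNA) host transcripts are noncoding RNAs whose introns carry snoRNAs, the guides that direct methylation and pseudouridylation of ribosomal RNA. The 8 hosts described here, GAS5, SNHG1, SNHG5, SNHG6, SNHG8, SNHG12, SNHG15 and ZFAS1, were chosen by name as hosts of the terminal oligopyrimidine (TOP) class. Each matched 1 Ensembl identifier, so that they made up 8 of the 58302 genes in the count table, and all 8 passed the filter on low counts. They were measured in oral squamous cell carcinoma (OSCC) cells treated with 100 nM rapamycin for 3 days, with untreated cells as control. RNA-seq comprised 2 rapamycin and 2 control libraries. m6A MeRIP-seq, in which fragments carrying N6-methyladenosine (m6A) are immunoprecipitated and compared with input RNA, gave 1 peak list for each of 4 conditions: HSC3 control, HSC3 rapamycin, CAL33 control and CAL33 rapamycin. HSC3 and CAL33 are established OSCC cell lines of tongue origin, and rapamycin inhibits mTORC1 and is used to induce autophagy. No source used here states that the libraries of a group came from separate cultures, so p-values measure only the spread between these libraries.

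A TOP transcript begins with a cytidine and an uninterrupted run of pyrimidines at its 5′ end, and its translation depends on mTORC1 through the cap-binding protein LARP1. mRNAs of ribosomal proteins and elongation factors are the best-known TOP transcripts. The exons of many snoRNA hosts hold no long reading frame. A host that is translated is therefore exposed to nonsense-mediated decay, in which UPF and SMG proteins degrade transcripts that terminate translation early, while its excised introns are trimmed to snoRNAs. GAS5 was named for its accumulation in growth-arrested cells.

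The sequences around the annotated starts are given first because the 5′ end defines the class. Windows for 6 of the 8 hosts were in the promoter table taken from RefSeq (GRCh38.p14), and those of SNHG6 and SNHG15 were not analysed here. Each line runs from 40 bases before the annotated transcript start to 50 bases after it, 5′ to 3′ on the transcribed strand, where position 1 is the first transcribed base. Capitals mark the run of a C followed by at least 4 pyrimidines that lies nearest to the start, between 10 bases before it and the end of the window.
SNHG5: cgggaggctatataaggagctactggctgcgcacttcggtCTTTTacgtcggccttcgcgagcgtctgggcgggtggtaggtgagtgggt
ZFAS1: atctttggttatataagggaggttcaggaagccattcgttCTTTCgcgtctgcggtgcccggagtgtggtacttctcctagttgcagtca
SNHG12: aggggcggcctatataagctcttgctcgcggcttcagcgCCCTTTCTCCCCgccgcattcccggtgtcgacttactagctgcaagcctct
SNHG8: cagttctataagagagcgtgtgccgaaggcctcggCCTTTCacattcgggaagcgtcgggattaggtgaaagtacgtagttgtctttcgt
GAS5: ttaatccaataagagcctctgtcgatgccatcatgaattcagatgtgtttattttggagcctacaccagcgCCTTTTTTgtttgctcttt
SNHG1: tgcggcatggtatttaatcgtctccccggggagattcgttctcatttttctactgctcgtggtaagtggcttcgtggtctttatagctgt
The windows lie at chr6:85678684-85678773 (minus strand) for SNHG5, chr20:49278602-49278691 (plus) for ZFAS1, chr1:28581824-28581913 (minus) for SNHG12, chr4:118278722-118278811 (plus) for SNHG8, chr1:173868996-173869085 (minus) for GAS5 and chr11:62855836-62855925 (minus) for SNHG1. In each, the first 40 bases are upstream of the annotated transcript start used and the next 50 follow it. For SNHG12 and ZFAS1 that start lies inside the gene span RefSeq gives (chr1:28578538-28582983 and chr20:49278178-49289260). Their first 40 bases are therefore upstream of 1 annotated start but within the gene. In the other 4 hosts the annotated start is the 5′ end of the gene span, so their first 40 bases lie outside it and the next 50 within it.

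The annotated first base was a C followed by at least 4 pyrimidines in 3 of the 6 hosts, SNHG5, ZFAS1 and SNHG12. Over all 35116 promoter windows of the table, 1429 (4.07%) had a C and at least 4 further pyrimidines at the annotated start. The same was found in 16 of 24 windows (66.7%) of TOP mRNAs that host snoRNAs, which came from 19 genes. In other noncoding hosts it was found in 4 of 17 windows (23.5%), which came from 17 genes. Shares are per window, and some genes have more than 1. Counted from its first C, the marked tract ran from position -1 to position 11 in SNHG12 and from position 1 to 5 in SNHG5 and ZFAS1. In SNHG5 and ZFAS1 the base just before that C was also a pyrimidine, so their annotated start lay inside a longer pyrimidine run. SNHG8 had its tract at positions -5 to 1, so that the annotated start fell on the last base of the tract. SNHG1 started with a C but had only 3 pyrimidines, and no C followed by at least 4 pyrimidines lay between position -10 and the end of its window, the part that was searched. GAS5 had its nearest tract at positions 32 to 39, within the annotated transcript. A tract anywhere between position -10 and the window's end was present in 58.4% of all windows, so a tract away from the start is common. The start that RefSeq annotates need not be the one these cells used, and RNA-seq counts per gene do not place it.

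The letters TATAA, searched on the transcribed strand between positions -45 and -16 after the sequences had been seen, were found in SNHG5, SNHG8, SNHG12 and ZFAS1, starting at positions -30, -34, -28 and -29. That was 4 of 6 hosts, against 4.09% of all windows, 3 of 24 windows of TOP mRNAs and 2 of 17 windows of other noncoding hosts. The 4 hosts with TATAA were the 4 whose tract touched the annotated start.

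**Figure D1:**
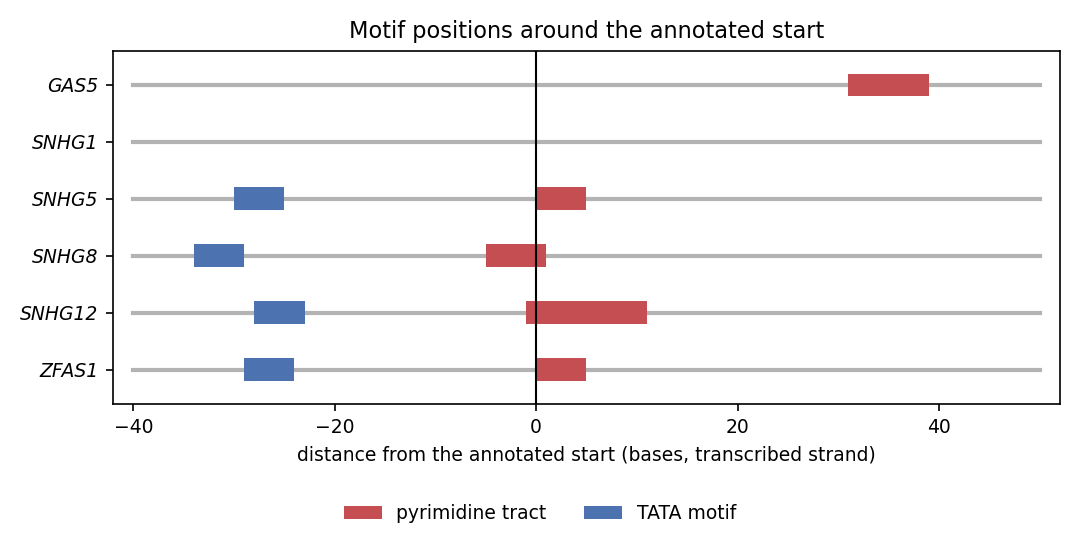
Position of the pyrimidine tract (red) and of the TATA motif (blue) in the 6 host windows, in bases from the annotated start on the transcribed strand (vertical line); grey bars span the 90 bases shown. The tract touches the start in SNHG5, SNHG8, SNHG12 and ZFAS1, lies downstream in GAS5 and is not found in SNHG1 between position -10 and the window's end, the part searched for it.

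The RNA-seq labels give HSC3 for both rapamycin libraries and CAL33 for both controls, so by the labels treatment and cell line cannot be told apart. The library numbers point another way. In the MeRIP-seq labels number 1 is HSC3 and number 2 is CAL33, and RNA-seq libraries of the same number were the most alike (r of log2 CPM across genes 0.97 and 0.96, against 0.81 to 0.86 for all other pairs). KRT17, a basal keratin, had 4.89 and 5.05 CPM in control 1 and rapamycin 1 and 1346 and 2119 CPM in control 2 and rapamycin 2. Of 263 genes at least 8-fold higher in number 1 in both treatments, peaks in the HSC3 control list covered 76 and in the CAL33 control list 20, while of 188 genes higher in number 2 they covered 16 and 36. Each comparison is therefore given without a block, and with the replicate number as a block, which compares rapamycin 1 with control 1 and rapamycin 2 with control 2. CPM are read counts scaled to a common library size, here by TMM. The libraries held 18492273 to 23763098 counts. CPM were not scaled by transcript length, so levels are compared between libraries and not between hosts.

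GAS5 was the host with a difference past the threshold, and only with the block. It had 78.7 and 116 CPM in control 1 and 2 and 231 and 247 CPM in rapamycin 1 and 2. Both rapamycin libraries stood above both controls, and the rapamycin libraries lay closer together (239 ± 11.6 CPM, SD, n = 2) than the controls (97.5 ± 26.7 CPM, SD, n = 2). GAS5 was 2.93-fold higher in the first pair and 2.12-fold higher in the second. With the replicate block its log2 fold change was 1.32 (SE 0.26, 95% interval 0.78 to 1.86, edgeR adjusted p = 0.0034). Without the block the log2 fold change was 1.29 (SE 0.34, 95% interval 0.36 to 2.23, unadjusted p = 0.0182 and edgeR adjusted p = 1). By the raw counts GAS5 rested on 1704, 2755, 4390 and 4507 reads in control 1, control 2, rapamycin 1 and rapamycin 2.

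The block decides how many genes pass in these 4 libraries. Without it, edgeR called 0 of 15826 genes (0.0%) at an adjusted p under 0.05, with 446 genes at an unadjusted p under 0.05, and DESeq2 called 42 genes and none of the 8 hosts. With it, edgeR called 1290 genes (8.15%), of which 736 (4.65% of those tested) were higher with rapamycin. With the block 3736 genes had an unadjusted p under 0.05 in edgeR, and DESeq2 called 818 genes. The common dispersion, which measures the spread between libraries beyond counting error, was 0.64 without the block and 0.061 with it. Against that background, 1 of 8 hosts was called with the block and 0 of 8 without it, where GAS5 alone had an unadjusted p under 0.05. The rise of GAS5 was not among the largest: 480 of the 736 genes called higher had a larger fold change.

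SNHG5, host of the U50 snoRNAs, came next. It had 76.2 and 51.2 CPM in the controls and 117 and 81.5 CPM with rapamycin, in the order of the numbers. Both rapamycin libraries exceeded both controls, and the pairs gave similar log2 differences of 0.61 and 0.67. The fitted log2 fold change with the block was 0.64 (SE 0.26, 95% interval 0.11 to 1.17), which did not pass after adjustment (unadjusted p = 0.0193, edgeR adjusted p = 0.122).

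SNHG1, which carries the U22 snoRNA and several others, had 107 and 131 CPM in the controls and 182 and 133 CPM with rapamycin. The libraries did not overlap, but the margin was narrow, since rapamycin 2 exceeded control 2 by 0.026 on the log2 scale and rapamycin 1 exceeded control 1 by 0.77. The blocked log2 fold change was 0.40 (SE 0.26, edgeR adjusted p = 0.379).

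SNHG8, host of SNORA24, had 14.7 and 17.4 CPM in the controls and 18.2 and 23.6 CPM with rapamycin. The libraries again did not overlap, with log2 differences of 0.30 and 0.43 in the pairs. Its blocked log2 fold change was 0.37 (SE 0.33, edgeR adjusted p = 0.534).

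ZFAS1, transcribed antisense to the 5′ end of ZNFX1 and host of the SNORD12 family, had 21.8 and 35.2 CPM in the controls and 28.4 and 45.3 CPM with rapamycin. The level was higher in each pair by nearly the same amount (log2 differences of 0.38 and 0.36), while rapamycin 1 remained under control 2. The blocked log2 fold change was 0.37 (SE 0.30, edgeR adjusted p = 0.471).

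The remaining 3 hosts moved in opposite directions in the numbered pairs. SNHG6, host of SNORD87, had 43.4 and 37.7 CPM in the controls and 30.5 and 51.6 CPM with rapamycin, so that both controls lay between the rapamycin libraries. Its log2 fold change was 0.017 without the block and -0.027 with it (edgeR adjusted p = 0.969). SNHG12, host of SNORA16A, SNORA44, SNORA61 and SNORD99, had 19.4 and 19.3 CPM in the controls, which were nearly equal, and 13.1 and 22.0 CPM with rapamycin. Its blocked log2 fold change was -0.19 (SE 0.34, edgeR adjusted p = 0.783).

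SNHG15, host of SNORA9, had the widest spread between pairs. It had 23.8 and 46.1 CPM in the controls and 27.8 and 17.3 CPM with rapamycin, so the highest and the lowest library were both numbered 2. The log2 difference was 0.22 in the first pair and -1.42 in the second. The blocked log2 fold change was -0.60 (SE 0.37, 95% interval -1.38 to 0.19, edgeR adjusted p = 0.355).

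**Figure D2:**
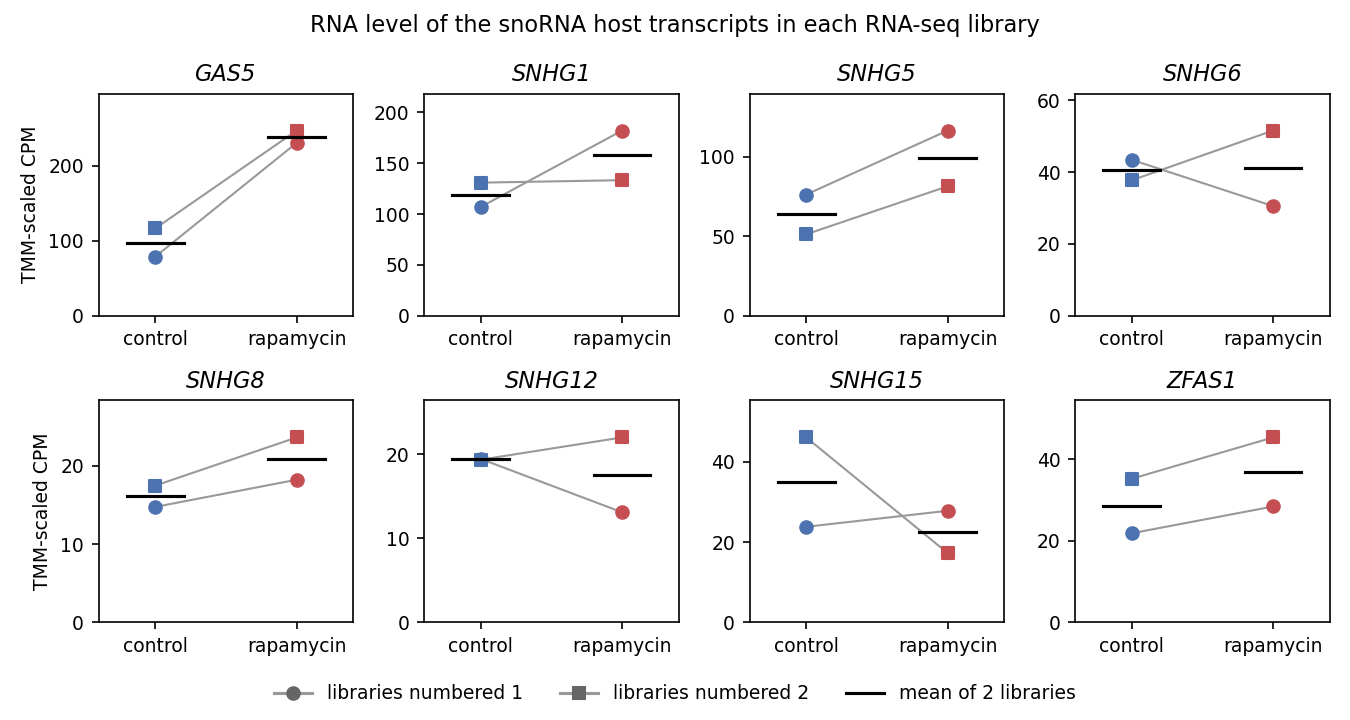
TMM-scaled CPM of each host (vertical axis, from 0 and scaled per panel) in the control (blue) and rapamycin (red) libraries; grey lines join libraries of the same number (circles 1, squares 2) and black bars are means of 2 libraries. The lines of GAS5, SNHG5, SNHG1, SNHG8 and ZFAS1 go up in both pairs, and those of SNHG6, SNHG12 and SNHG15 run in opposite directions.

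**Figure D3:**
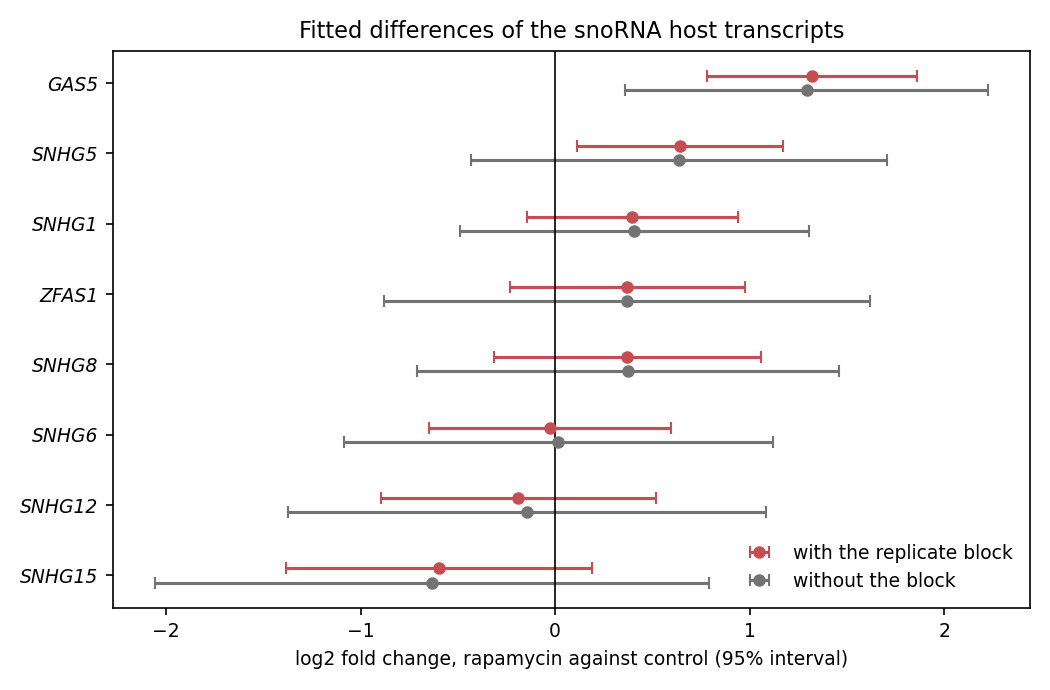
log2 fold change of each host, rapamycin against control, from edgeR with the replicate block (red) and without it (grey), with 95% intervals. The interval of GAS5 lies above 0 in both fits and that of SNHG5 only with the block, before adjustment for the number of genes.

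Over the 8 hosts, the libraries did not overlap in 4 (GAS5, SNHG5, SNHG1 and SNHG8), all higher with rapamycin, and 0 were lower without overlap. Of all tested genes, 15.0% were higher and 16.5% lower without overlap. The level was higher in both numbered pairs in 5 of 8 hosts, against 34.6% of all tested genes. Opposite directions, as in SNHG6, SNHG12 and SNHG15, were found in 30.1% of all tested genes, close to the 3 of 8 seen here. The median blocked log2 fold change was 0.37 over the hosts and 0.053 over all tested genes. Without the block the medians were 0.37 and 0.059, and the host median moved with single libraries. It was 0.13 without control 1 (all genes 0.092) and 0.063 without rapamycin 2 (all genes -0.039). It was 0.43 without control 2 (all genes 0.074) and 0.33 without rapamycin 1 (all genes -0.070). The 8 hosts were chosen as a class and number few, and no test was made of the class as a whole.

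**Figure D4:**
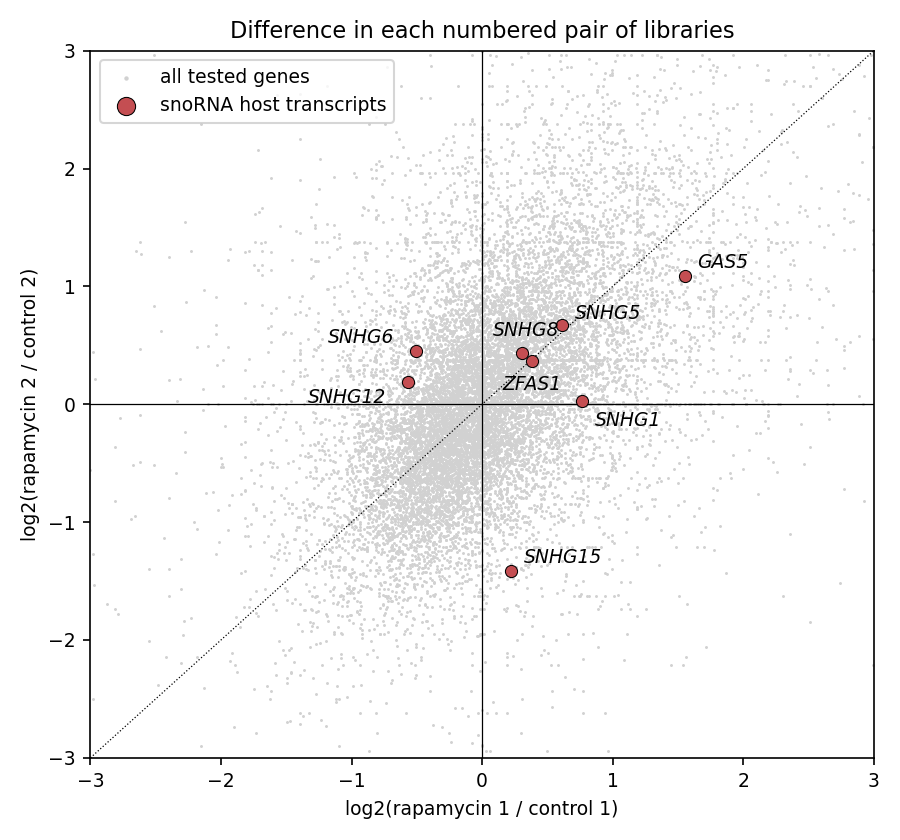
log2 ratio of rapamycin 1 to control 1 (horizontal) against rapamycin 2 to control 2 (vertical) for the 8 hosts (red) over all tested genes (grey); genes beyond 3 on either axis are outside the frame and the dotted line marks equal differences. GAS5 lies far from 0 on both axes, 4 other hosts lie in the same quadrant, and SNHG15 lies lowest.

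By the median, the hosts differed less between the library numbers than all tested genes. With treatment in the model, 5899 of 15826 genes (37.3%) differed between number 2 and number 1 in edgeR, and 0 of the 8 hosts passed; DESeq2 also called 0 of 8, and 2 hosts had an unadjusted edgeR p under 0.05. These were ZFAS1, with a log2 difference (number 2 minus number 1) of 0.68 (SE 0.30, edgeR adjusted p = 0.072), and SNHG5, with -0.55 (SE 0.26, edgeR adjusted p = 0.0978). The median absolute log2 difference between the numbers was 0.32 over the hosts and 0.67 over all tested genes. The hosts lay at 13.1 to 247 CPM, and the tested genes were not matched to them by level. The intervals of ZFAS1 (0.073 to 1.29), SNHG5 (-1.07 to -0.018) and SNHG12 (-0.34 to 1.08) still allowed a difference above 2-fold.

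Genes of the same pathways were taken from lists. The other noncoding snoRNA hosts had 16 of 20 members tested. With the block 1 rose, 1 fell and 14 did not pass in edgeR, so 12.5% were called, against 8.15% of all tested genes. An unadjusted p under 0.05 was found in 5 of the 16, against 3736 of all 15826 tested genes. The median log2 fold change was 0.19. DESeq2 with the block called 3, with SNHG29 and SNHG32 higher and DANCR lower. SNHG32 had 160 and 92.6 CPM in the controls and 277 and 264 CPM with rapamycin (log2 fold change 1.15, edgeR adjusted p = 0.0088). DANCR, host of SNORA26, had 105 and 25.2 CPM in the controls and 39.0 and 11.4 CPM with rapamycin (log2 fold change -1.29, edgeR adjusted p = 0.00693). The called hosts outside the 8 thus went in both directions, and DANCR differed between the library numbers as well (log2 difference -1.92, edgeR adjusted p = 6.23e-06).

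The 26 mRNAs that both host snoRNAs and belong to the TOP class, ribosomal protein genes with EEF1B2, EEF2, RACK1 and TPT1, were all tested. None passed in either edgeR fit (0 and 4 at an unadjusted p under 0.05 without and with the block), whereas DESeq2 with the block called RPL3 and TPT1 higher. Of all 15826 tested genes, 446 and 3736 had an unadjusted p under 0.05 in edgeR without and with the block. The median blocked log2 fold change was 0.27, and values ran from -0.25 to 0.69. Ribosomal protein genes have many near-identical pseudogene copies, so their counts are uncertain. Of the 26, 24 had a blocked log2 fold change above 0, where the median of all tested genes was 0.053. In both numbered pairs 15 of the 26 were higher, against 34.6% of all tested genes.

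The snoRNP list holds the proteins that bind snoRNAs and the factors that assemble them. Of 16 tested, edgeR with the block called 1 lower and none higher (6.25%, against 8.15% of all tested genes). An unadjusted p under 0.05 was found in 4 of the 16, against 3736 of all 15826 tested genes. The median log2 fold change was -0.41, and 2 of the 16 had a log2 fold change above 0. DESeq2 with the block called 2, DKC1 and NOP56, both lower. The one called by edgeR was DKC1, the pseudouridine synthase of box H/ACA snoRNPs, with 325 and 276 CPM in the controls and 228 and 88.8 CPM with rapamycin (log2 fold change -1.07, edgeR adjusted p = 0.0244). The level was lower with rapamycin in both pairs in 12 of the 16, against 31.8% of all tested genes.

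Of the nonsense-mediated decay factors 10 of 10 were tested and 0 passed in either edgeR fit or with DESeq2 (2 at an unadjusted p under 0.05 in edgeR with the block). Their median blocked log2 fold change was -0.46, and 7 were lower in both pairs, against 31.8% of all tested genes. In edgeR with the block 3736 of all 15826 tested genes had an unadjusted p under 0.05. Of the regulators that bind TOP transcripts, which include LARP1, 7 of 7 were tested and 0 passed in either edgeR fit or with DESeq2 (1 at an unadjusted p under 0.05 in edgeR with the block). The median blocked log2 fold change was -0.21 and 6 were lower in both pairs, against the same 31.8% of all tested genes. Without the block, edgeR and DESeq2 called 0 genes of these lists, and 1 of the other noncoding hosts and 0 of the other genes listed had an unadjusted edgeR p under 0.05.

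**Figure D5:**
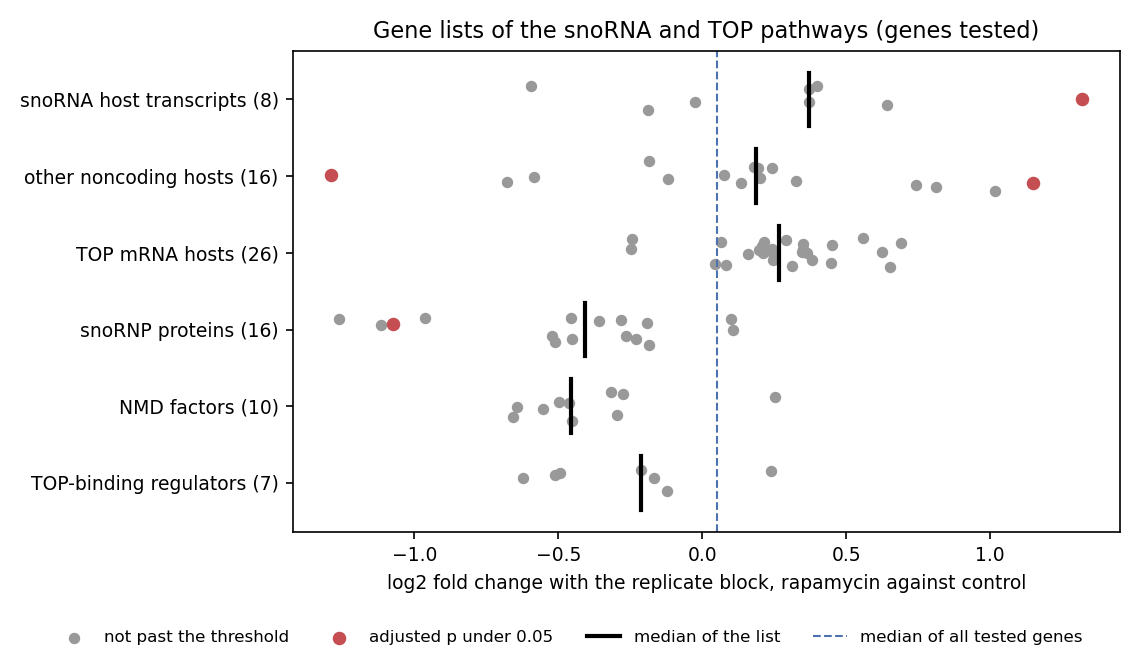
Blocked log2 fold change, rapamycin against control, of every tested gene in the 8 hosts and 5 pathway lists (points, jittered vertically; red where the adjusted p is under 0.05), with each list's median (black bars) and the median of all tested genes (dashed line, 0.053). The medians of the host and TOP mRNA lists lie right of the dashed line and those of the snoRNP, nonsense-mediated decay (NMD) and TOP-binding lists left of it.

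Some keratins moved with treatment in the same fit. Of 8 squamous epithelial markers, 3 fell in edgeR with the block (KRT5, KRT6A and KRT14) and 0 rose. In that fit 554 of all 15826 tested genes were called lower. DESeq2 with the block called KRT5 and KRT6A. KRT17 did not pass, with a blocked log2 fold change of 0.38 (edgeR adjusted p = 0.43). The summed level of the 8 markers was 1236 and 5258 CPM, here without TMM scaling, in the controls and 945 and 3824 with rapamycin. KRT14 was at 0 in both libraries numbered 1. Of 6 fibroblast markers COL1A2, COL3A1 and DCN were at 0 in all libraries, and the sum of the 6 was 8.75 to 48.0 CPM, mostly COL1A1. PDGFRB had 224, 0, 281 and 0 counts in control 1, control 2, rapamycin 1 and rapamycin 2. LUM had 75, 0, 49 and 2 counts in the same order, so both were found almost only in the libraries numbered 1. The leukocyte marker PTPRC was at 0 in all libraries. The part of these differences in the host levels was not tested. In bulk RNA, fewer cells of a type and less RNA per cell cannot be told apart.

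The snoRNAs carried by the 8 hosts were nearly absent from the table. Of 30 listed, 20 symbols were matched to 26 identifiers, and 22 of these had 0 counts in all 4 libraries, which allows up to 3 counts in each. SNORD12B of ZFAS1 had 36 and 100 counts in the controls and 36 and 82 with rapamycin (edgeR adjusted p = 0.908 with the block). SNORD99 of SNHG12 had 17 and 26 counts in the controls and 18 and 5 with rapamycin (edgeR adjusted p = 0.585 with the block). SNORD12C of ZFAS1 had at most 5 counts in a library, and SNORD27 of SNHG1 had 1 in all. The libraries were made with a kit for mRNA, so host RNA and mature snoRNA cannot be compared here.

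Some hosts share their locus with other annotated genes. GAS5 overlaps ZBTB37, with 202, 394, 299 and 459 counts in control 1, control 2, rapamycin 1 and rapamycin 2, and GAS5-AS1, with 7, 1, 8 and 13. SNHG12 overlaps TRNAU1AP, with 482, 394, 625 and 419 counts, and SNHG6 overlaps MCMDC2, with 1, 0, 17 and 1. The kit keeps strand, but whether the counting used it is not given in the sources used here, so reads of overlapping genes may be exchanged. ZBTB37 and GAS5-AS1 together held fewer counts than GAS5 in every library.

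Across the 4 libraries, the median profile of the hosts, centred per gene on the log2 scale, was -0.24 in control 1, -0.058 in control 2, 0.022 in rapamycin 1 and 0.32 in rapamycin 2. The genes with the most similar profile among those with a mean log2 CPM of at least 5 were ACVR1B, an activin receptor, the noncoding RNA TUG1 and CTSZ, a lysosomal protease, with root mean square distances of 0.026, 0.027 and 0.027 over 4 libraries. None of these passed the blocked test (edgeR adjusted p = 0.544, 0.475 and 0.514). They were picked for their levels in the same 4 libraries, so that outcome is no separate result.

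m6A peaks were all but absent from the hosts. The HSC3 control list had a peak in 1 of 8, SNHG15, and the HSC3 rapamycin, CAL33 control and CAL33 rapamycin lists had peaks in 0 of 8. The peak lay in an annotated exon at chr7:44986423-44986602 (hg38, minus strand), 180 bp long and 95 to 274 bases from the annotated start of SNHG15. It had a fold enrichment of 196 over input, a log10 p of -33.3 and a log10 false discovery rate of -31.8. By fold enrichment it stood at percentile 87.6 of the 3930 peaks of that list, and by p at 69.4. No peak of the HSC3 rapamycin list overlapped it. SNHG15 RNA in the libraries numbered 1 was 23.8 CPM in control and 27.8 CPM with rapamycin. Taking these libraries as HSC3 rests on the MeRIP-seq numbering, since the RNA-seq labels give CAL33 for the controls. There was 1 list per condition, so its absence from the rapamycin list has no replicate check, and an absent peak does not show an absent mark.

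Of all 15826 tested genes, 17.6% had a peak in the HSC3 control list, 17.5% in HSC3 rapamycin, 16.1% in CAL33 control and 14.2% in CAL33 rapamycin. Of 1077 tested genes that RefSeq classes as long noncoding, 8.17%, 7.99%, 5.01% and 4.18% had one, so 0 or 1 of 8 hosts is near what noncoding genes showed. In the same order of lists, 5, 2, 1 and 1 of the 20 other noncoding hosts had a peak. SNHG16 had a peak in all 4 lists, and 6 of the 20 had a peak in at least 1 list. Among the 26 TOP mRNA hosts, 3, 2, 1 and 2 had a peak in the single lists and 4 in at least 1 list. The share of all tested genes with a peak in at least 1 list was not computed. The counts over any list therefore cannot be set against the shares above, which are per list.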

How the data were processed

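The study's authors deposited raw read counts per gene (no normalization, Ensembl identifiers) for 4 RNA-seq libraries. They also deposited 1 peak list per MeRIP-seq condition, with a fold enrichment ratio of immunoprecipitated RNA to input and a log10 p-value and false discovery rate per peak. The submitters' notes name cutadapt 2.5, HISAT2 2.1.0, featureCounts 1.6.3, HOMER 4.10.4 and hg38 without saying what each was used for. The peak caller is not given in the sources used here, and the MeRIP-seq depth is unknown.

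Differential expression was fitted by edgeR 4.0.16 under R 4.3.3 (filterByExpr, TMM, robust quasi-likelihood test), adjusted by Benjamini-Hochberg at 0.05 over all 15826 genes. The SE was the absolute log2 fold change over the square root of F. Symbols were matched for 57532 of 58302 identifiers. The members and lists were chosen with earlier results of these data known. All 8 hosts were named, and from the other lists up to 2 called rises and 2 called falls of greatest size with the block. Part of the leukocyte marker list is not reported here. Scripts were tested on simulated data. The alternatives were the replicate number as a block, DESeq2 1.42.0, RLE size factors, other filters on low counts, each library left out, stricter peak thresholds and another overlap rule.

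Pairing was checked by the difference between number 2 and number 1, which correlated between rapamycin and control libraries across 15826 genes (r = 0.88, genes not being independent replicates). The pairing itself comes from the MeRIP-seq labels, where each number stands for 1 cell line. Intervals of the peak values could not be given without read counts.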

Additional observations from a re-analysis of the deposited data

Results flagged for a closer look

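SNHG6, SNHG12 and SNHG15 moved in opposite directions in the 2 numbered pairs of libraries, and in each case the difference between the pairs was not tested, since 1 library per number and treatment leaves no spread. SNHG6 had a log2 difference (rapamycin minus control) of -0.51 for number 1 and 0.45 for number 2. SNHG12 had -0.57 for number 1 and 0.19 for number 2. SNHG15 had 0.22 for number 1 and -1.42 for number 2. Opposite directions were found in 30.1% of all tested genes.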

How the results depend on the processing

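Without the block, 0 of 8 hosts were called under every alternative, and with each library left out both the hosts and all genes ranged from 0 to 0 calls, with 60 to 387 genes at an unadjusted p under 0.05. The replicate block gave 1 called host, GAS5, in edgeR, with DESeq2, with RLE size factors, with no filter on low counts and with at least 10 counts in every library, and 1290, 818, 1230, 1606 and 1236 genes called in that order. DESeq2 without the block called 42 genes. The adjusted p of GAS5 ran from 0.000184 to 0.00362 with the block and from 0.112 to 1 without it. A blocked fit with 1 library left out was not run, because no residual degrees of freedom remain. The full blocked fit has 1 residual degree of freedom.

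SNHG6 lay near 0 and turned from 0.017 to -0.027 with the block, to -0.019 with no filter, and with the block to -0.014 with DESeq2, -0.013 with RLE size factors, -0.064 with no filter and -0.0011 with at least 10 counts. With libraries left out the log2 fold changes ran from -0.43 to 0.32 for SNHG6, from -0.59 to 0.16 for SNHG12 and from -0.029 to 0.75 for ZFAS1, and SNHG6 was also -0.089 without control 2. The direction of the other 5 hosts held in each alternative, but their size moved. It ran from 0.97 (without control 1) to 1.6 (without control 2) for GAS5, from 0.14 (without rapamycin 1) to 0.59 (without rapamycin 2) for SNHG1, from 0.33 (without rapamycin 1) to 0.89 (without control 1) for SNHG5, from 0.16 (without rapamycin 2) to 0.53 (without rapamycin 1) for SNHG8 and from -1.09 (without control 1) to -0.085 (without control 2) for SNHG15. The cause was not tested. Genes called between the numbers fell from 5899 to 3927 with at least 10 counts in every library, which tests fewer genes. The SNHG15 peak was kept at a false discovery rate of at most 0.05, among peaks enriched 4-fold or more and among equal numbers of top-ranked peaks.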
